A study of Mus musculus with 8 samples.

Results

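The 9 genes described here carry the signals of noradrenaline, adrenaline and acetylcholine into the heart cell. They were chosen by name: the receptors Adrb1, Adra1a, Adra1b and Chrm2, the G protein gene Gnas, the RGS protein gene Rgs2, the adenylyl cyclases Adcy5 and Adcy6, and the phosphodiesterase Pde3a. All 9 were found among the 50599 gene records of each library, of which 27339 had a count in at least 1 library. In Lrpprc knockout hearts 7 of the 9 transcripts were lower than in wildtype hearts, by 1.43-fold to 5.47-fold, beside 15.5% of all genes tested called lower, and no member was called higher, except Adcy5 and Gnas when libraries were scaled by total counts without mitochondrial rRNA. Under that scaling, and without knockout replicate 4, the number lower was 6, since Adcy6, with the smallest fall, was not called. The 4 receptors and Rgs2 were lower by more than 2-fold, as were 5.49% of all genes tested, whereas Adcy5 and Gnas did not pass the test under the main scaling.

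In the heart, noradrenaline from sympathetic nerves acts on the beta-1 receptor, which activates the stimulatory G protein and through it adenylyl cyclase, so that cAMP rises and protein kinase A phosphorylates calcium channels and pumps. Alpha-1 receptors signal through Gq to phospholipase C, and RGS proteins shorten G protein signals. Acetylcholine from the vagus acts on the M2 receptor, whose inhibitory G protein opposes cyclase and opens GIRK potassium channels. Phosphodiesterases end the signal by breaking down cAMP.

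RNA was taken from whole hearts of 12-week-old male C57BL/6N mice, with 4 wildtype and 4 Lrpprc knockout libraries of total RNA depleted of cytoplasmic rRNA, and each heart gave 1 library. LRPPRC is a mitochondrial RNA-binding protein. By the study's methods the wildtype controls were Lrpprc loxP/loxP mice without Cre, and the knockout mice were Lrpprc loxP/loxP, Cre+, a deletion specific to heart and skeletal muscle, so that both groups carried the loxP alleles and non-muscle cells of the heart were not targeted. Which promoter drove Cre was not given in the sources used here. The sources used here name no drug or hormone treatment.

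Libraries held 35218541 to 47743376 expected counts, and mitochondrial rRNA took 44.0% to 46.9% of them in wildtype and 65.6% to 67.8% in knockout libraries. Lrpprc itself was lower by 2.67 on the log2 scale (SE 0.10, adjusted p = 3.77e-153 by DESeq2), with a knockout mean of 15.7% of wildtype. Knockout replicate 3 stood apart from the other knockout libraries: on the second principal component, with 12.4% of the variance, it lay at 38.73 and the others between -20.32 and -11.88. Each member is therefore given with and without it. The defining heart muscle markers Myh6, Tnnt2 and Ryr2 were abundant in all 8 libraries.

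Upstream sequence is shown for 4 members, since Rgs2, Adrb1 and Chrm2 fell together and Gnas did not pass the test. The set of RefSeq (GRCm38.p6) transcript starts used here covered 6 of the 9 members, in 10 windows. Adra1a, Adcy6 and Pde3a had no entry in that set, which does not show that RefSeq lacks a start for them. Each window below is the 250 bases before a start, 5′ to 3′ on the gene's strand, at chr1:144004150-144004399 (minus) for Rgs2, chr19:56721867-56722116 (plus) for Adrb1, chr6:36387834-36388083 (plus) for Chrm2 and, for Gnas, chr2:174329756-174330005 (plus), the last of its 4 windows along the chromosome. Capitals mark the core of the cAMP response element, TGACG or its reverse complement CGTCA.
Rgs2: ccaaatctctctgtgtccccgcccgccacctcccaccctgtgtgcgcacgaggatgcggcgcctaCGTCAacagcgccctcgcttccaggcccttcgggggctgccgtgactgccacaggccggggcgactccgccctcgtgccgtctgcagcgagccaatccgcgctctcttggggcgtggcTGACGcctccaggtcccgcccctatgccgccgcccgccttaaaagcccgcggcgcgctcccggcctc
Adrb1: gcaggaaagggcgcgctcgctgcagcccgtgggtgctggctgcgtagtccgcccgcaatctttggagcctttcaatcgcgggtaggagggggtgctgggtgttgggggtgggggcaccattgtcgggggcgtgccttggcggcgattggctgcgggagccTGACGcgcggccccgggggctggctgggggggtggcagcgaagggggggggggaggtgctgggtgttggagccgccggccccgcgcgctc
Chrm2: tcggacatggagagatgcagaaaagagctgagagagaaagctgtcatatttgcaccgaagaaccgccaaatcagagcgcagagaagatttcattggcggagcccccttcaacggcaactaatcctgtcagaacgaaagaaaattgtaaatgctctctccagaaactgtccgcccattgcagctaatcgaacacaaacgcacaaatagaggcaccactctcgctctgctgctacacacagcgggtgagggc
Gnas: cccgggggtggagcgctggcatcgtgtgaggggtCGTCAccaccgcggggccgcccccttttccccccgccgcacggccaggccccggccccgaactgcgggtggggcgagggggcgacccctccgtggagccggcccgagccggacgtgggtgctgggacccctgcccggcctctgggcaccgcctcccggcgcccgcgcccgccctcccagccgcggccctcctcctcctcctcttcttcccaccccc
The core stood 2 times in the Rgs2 window, starting at -185 and -67 from the start, and 1 time in the Adrb1 window, at -90. It was in 3 of the 4 Gnas windows, of which a pair overlap and share the match, and in none of the Chrm2, Adcy5 and Adra1b windows. That made 5 of 10 member windows, beside 17.8% of all 32851 windows of the same length. The full element TGACGTCA, which holds the core on both strands, was in none of the 10 and in 1.55% of all windows. A TATA box (TATAAA or TTTATA) was in 3 of the 10, each a Gnas window and 2 of them the overlapping pair that share the match, and in 12.4% of all windows. The windows also differed in base composition, from 41.6% G and C in an Adra1b window, not shown, to 80.0% in the Gnas window shown, with 50.0% in Chrm2, beside a median of 52.4% over all windows.

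Normalised counts below are expected counts divided by the library's size factor and corrected for transcript length. Adrb1, on chromosome 19 at 56722199 to 56733113, encodes the main beta receptor of heart muscle. In the order of the replicate numbers, wildtype libraries held 221.4, 213.9, 210.0 and 190.5 normalised counts and knockout libraries 58.04, 73.93, 46.11 and 35.74. Each knockout library thus lay below all wildtype libraries, with a knockout mean of 25.6% of wildtype. Adrb1 had a log2 fold change of -1.97 (SE 0.22, adjusted p = 9.30e-18) and -1.92 without knockout replicate 3.

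Both alpha-1 receptors among the members were lower too. Adra1a, on chromosome 14 at 66635251 to 66771168, had normalised counts of 712.4, 633.3, 537.4 and 675.6 in wildtype and 96.45, 116.1, 119.7 and 133.9 in knockout libraries. The groups were far apart, and the log2 fold change of Adra1a was -2.45 (SE 0.16, adjusted p = 4.48e-54), with -2.46 when knockout replicate 3 was left out. Adra1b, on chromosome 11 at 43774606 to 43901210, had 507.4, 498.6, 269.6 and 398.8 in wildtype and 92.81, 70.86, 97.25 and 73.15 in knockout libraries. Relative to its mean, its wildtype level varied more than that of the other receptors, with replicate 3 the lowest, yet no library overlapped with the other group. For Adra1b the log2 fold change was -2.33 (SE 0.23, adjusted p = 6.30e-22), and -2.41 without knockout replicate 3.

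Chrm2, on chromosome 6 at 36388084 to 36528414, encodes the M2 muscarinic receptor through which the vagus slows the heart. Its normalised counts were 3480, 3396, 2645 and 3213 in wildtype and 894.9, 1367, 1184 and 1481 in knockout libraries. The groups did not overlap, and the knockout mean was 38.7% of wildtype. The log2 fold change of Chrm2 was -1.37 (SE 0.17, adjusted p = 7.72e-15) and -1.35 without knockout replicate 3. The receptors of both opposing arms of the autonomic input were thus lower together.

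Gnas, on chromosome 2 at 174284320 to 174346744, encodes the stimulatory alpha subunit that couples beta receptors to cyclase, together with other transcripts of an imprinted locus that the gene-level count adds up. Its normalised counts were 7402, 7307, 6335 and 6477 in wildtype and 6609, 6565, 6966 and 5843 in knockout libraries. The groups overlapped. Gnas had a log2 fold change of -0.08 (95% interval -0.27 to 0.11, adjusted p = 0.561), and -0.12 without knockout replicate 3.

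Rgs2, on chromosome 1 at 143999338 to 144004161, encodes a small protein that shortens Gq signals. Its normalised counts were 605.6, 487.7, 657.1 and 648.8 in wildtype and 132.2, 173.8, 158.2 and 124.6 in knockout libraries. The highest knockout value was thus far under the lowest wildtype value. The log2 fold change of Rgs2 was -2.04 (SE 0.16, adjusted p = 4.76e-34) and -2.08 without knockout replicate 3. Rgs2 and the alpha-1 receptors whose signal it limits were thus lower in the same hearts.

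The 2 main adenylyl cyclases of heart muscle differed from each other. Adcy5, on chromosome 16 at 35154877 to 35305738, had normalised counts of 1464, 1592, 1662 and 1461 in wildtype and 1240, 1514, 1651 and 1534 in knockout libraries. The groups overlapped, and the log2 fold change of Adcy5 was -0.06 (95% interval -0.28 to 0.17, adjusted p = 0.753), or -0.11 without knockout replicate 3. Adcy6, on chromosome 15 at 98589973 to 98610076, had 3630, 3614, 3425 and 3263 in wildtype and 1901, 2420, 3366 and 2087 in knockout libraries. Knockout replicate 3 lay within the wildtype range of Adcy6 and the other 3 below it. The log2 fold change of Adcy6 was -0.51 (SE 0.17, adjusted p = 0.0116). It was -0.71 (adjusted p = 2.66e-11) without knockout replicate 3, and it missed the threshold at -0.44 (adjusted p = 0.0587) without knockout replicate 4.

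Pde3a, on chromosome 6 at 141249269 to 141507448, encodes a phosphodiesterase that breaks down cAMP in heart muscle. Its normalised counts were 2845, 2861, 2490 and 2841 in wildtype and 1578, 1294, 1276 and 1578 in knockout libraries. No knockout library reached the wildtype range. Pde3a had a log2 fold change of -0.95 (SE 0.11, adjusted p = 2.35e-15), and -0.90 without knockout replicate 3.

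**Figure D1:**
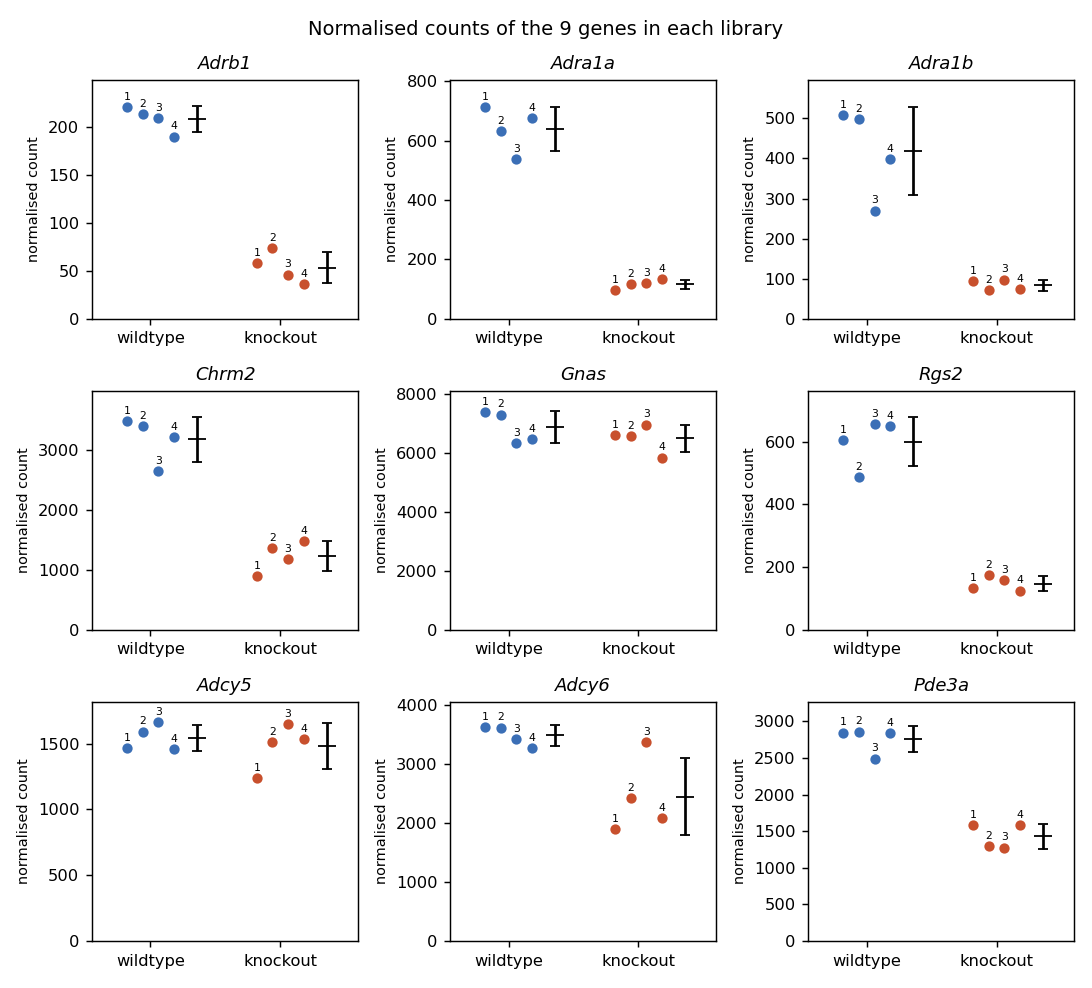
Normalised count (vertical axes, from 0, one scale per gene) of each member in each library. Blue points are the 4 wildtype and orange points the 4 knockout libraries, numbered by replicate, and the bar beside them is the mean with its SD. Knockout points of Adrb1, Adra1a, Adra1b, Chrm2, Rgs2 and Pde3a lie below every wildtype point, while those of Adcy5, Adcy6 and Gnas overlap with wildtype.

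All 9 members passed the filter on low counts, 7 were called lower and 0 higher at an adjusted p under 0.05 by DESeq2, and 2 were not called. At an unadjusted p under 0.05 and by edgeR, too, 0 were higher. Over all 19959 genes tested, 33.7% were called in either direction and 15.5% were called lower. By at least 2-fold, 5 members were called lower, beside 5.49% of all genes tested. In 6 members the groups did not overlap, with the knockout the lower, as in 16.4% of the genes tested. The quasi-likelihood test of edgeR also called 7 members lower, where it called 19.6% of its genes lower. Without knockout replicate 3 the number was again 7, with 16.2% of all genes tested. The median log2 fold change of the members was -1.37 (-1.35 without knockout replicate 3), beside 0.005 over all genes tested.

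The scaling between libraries decided the sign only for the members near 0. Total-count scaling moved the median gene by -0.296 on the log2 scale, and total counts without mitochondrial rRNA moved it by 0.425. The log2 fold change of Adcy5 was -0.35 (adjusted p = 0.0168) under the first and turned to 0.37 (adjusted p = 0.00286) under the second. That of Gnas was -0.38 (adjusted p = 1.54e-04) and turned to 0.34 (adjusted p = 2.67e-04). The fall of Adcy6 was no longer called under the second, at -0.10 (adjusted p = 0.650). The other 6 members remained lower and called under both scalings. Relative to the median gene, Adcy5 was at -0.08, Gnas between -0.11 and -0.10 and Adcy6 between -0.54 and -0.53 under all 3 scalings.

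**Figure D2:**
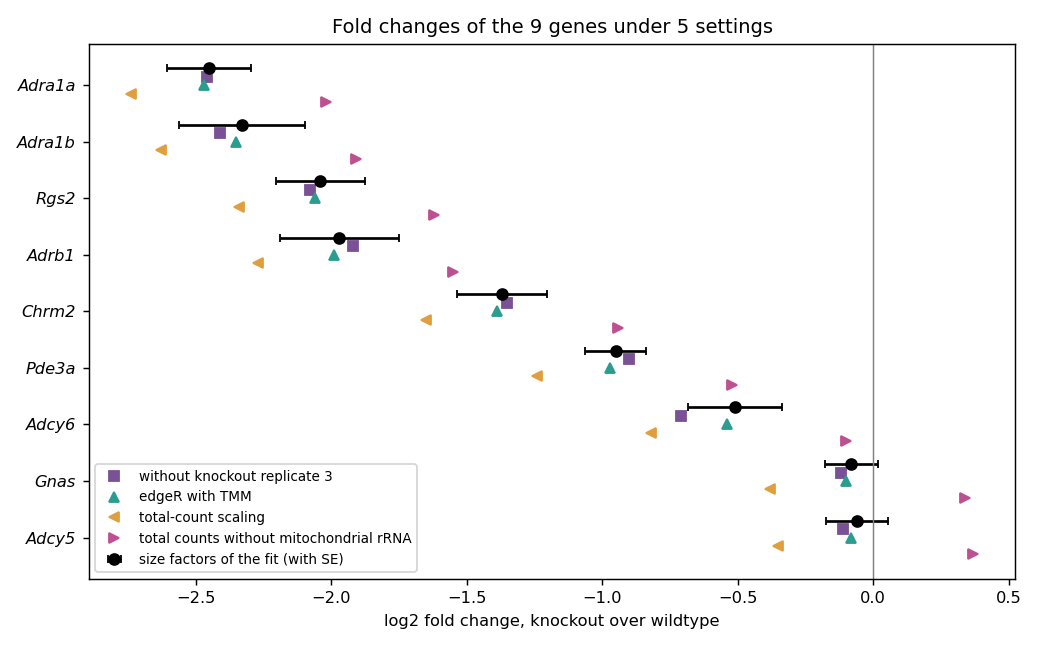
Log2 fold change of each member, knockout over wildtype (horizontal axis), under 5 settings. Black circles with SE bars are the values of the DESeq2 fit, purple squares leave out knockout replicate 3, green triangles are edgeR, and the left- and right-pointing triangles are the total-count scalings with and without mitochondrial rRNA. The 6 members with the largest falls stay below 0 throughout, whereas Adcy5 and Gnas lie on either side of 0 under the total-count scalings.

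The members were compared with each other as normalised counts per kilobase of effective length. In wildtype hearts Gnas was the most abundant at 4440 ± 356 (SD, n = 4) per kb. Chrm2 at 607 ± 71.7 and Adcy6 at 595 ± 29.7 followed, and their ranges overlapped. Rgs2 at 315 ± 41.0 and Pde3a at 276 per kb (249 to 286 over the 4 libraries) also overlapped. Adcy5 at 226 ± 14.5, Adra1b at 192 ± 51.0 and Adra1a at 172 ± 20.2 per kb came next, and the range of Adra1b took in all of that of Adra1a and part of that of Adcy5. Adrb1 was the lowest, at 89.9 ± 5.67 per kb, below every library of the other 8 genes.

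In knockout hearts this order changed. Gnas, at 4190 ± 304 per kb, and Adcy6, at 418 ± 111 per kb, were the highest. Chrm2 at 235 ± 48.7 and Adcy5 at 217 ± 25.4 per kb had overlapping ranges, although they had been far apart in wildtype. Pde3a stood at 143 ± 16.9 and Rgs2 at 77.4 ± 12.0 per kb, with no overlap between them. The remaining receptors lay lowest: Adra1b at 38.4 ± 6.18, Adra1a at 31.2 ± 4.14 and Adrb1 at 23.0 ± 7.06 per kb, with overlap between neighbours.

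**Figure D3:**
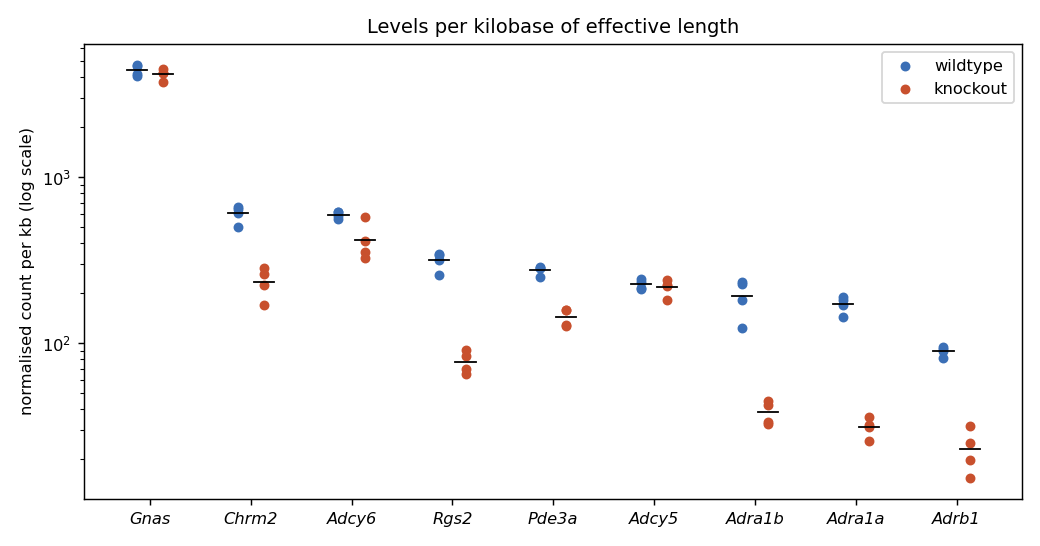
Normalised count per kilobase of effective length (vertical axis, log scale) of the 9 members, ordered by wildtype level. Points are the 4 libraries of each group and lines their means. Gnas has the highest and Adrb1 the lowest mean in both groups, and Rgs2 and Pde3a lie above Adcy5 in wildtype and below it in knockout.

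Ratios of 2 genes within a library do not depend on the scaling between libraries, and 6 were tested on log2 TPM, a value per length, by an exact two-sided permutation test, with p-values adjusted over all 6. The 5 described here are 4 between members and that of Pde3a to its paralog Pde3b. With 4 against 4 libraries the smallest p the test can give is 0.0286. The ratio of Adcy5 to Adcy6 was 0.345, 0.377, 0.415 and 0.383 in wildtype and 0.558, 0.535, 0.419 and 0.628 in knockout libraries. It was higher by 0.48 on the log2 scale (exact permutation p = 0.0286, adjusted 0.0429), although knockout replicate 3, at 0.419, barely passed the highest wildtype library. Without that library the difference was 0.59. The ratio of Pde3a to Pde3b went from 6.33, 7.95, 9.57 and 7.06 in wildtype to 3.64, 3.61, 2.68 and 2.85 in knockout libraries, a log2 difference of -1.27 (exact permutation p = 0.0286, adjusted 0.0429). The ratio of Adcy5 to Pde3a, 1 cyclase and 1 phosphodiesterase of several, was 0.753, 0.814, 0.977 and 0.751 in wildtype and 1.15, 1.71, 1.89 and 1.42 in knockout libraries. Its log2 difference was 0.89 (exact permutation p = 0.0286, adjusted 0.0429). Without any 1 of the 4 wildtype libraries the adjusted p of these 3 ratios missed the threshold, at 0.0571 to 0.0857 by the exact permutation test. Without any 1 knockout library it was 0.0343 to 0.0429, and over all 8 exclusions the log2 differences lay within 0.40 to 0.59, -1.36 to -1.16 and 0.78 to 1.02.

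For the other pairs no difference was shown. The ratio of Adra1a to Adra1b had a log2 mean of -0.13 ± 0.289 (SD, n = 4) in wildtype and -0.29 ± 0.366 in knockout libraries (exact permutation p = 0.514, adjusted 0.514). The ratio of Adrb1 to Chrm2, the beta receptor against the muscarinic receptor, had a log2 mean of -2.75 ± 0.185 in wildtype and -3.38 ± 0.623 in knockout libraries (exact permutation p = 0.114, adjusted 0.137), and 3 of 4 knockout libraries lay below all wildtype libraries. Without knockout replicate 1 that difference passed the threshold (exact permutation test, adjusted p = 0.0343), at -0.83.

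**Figure D4:**
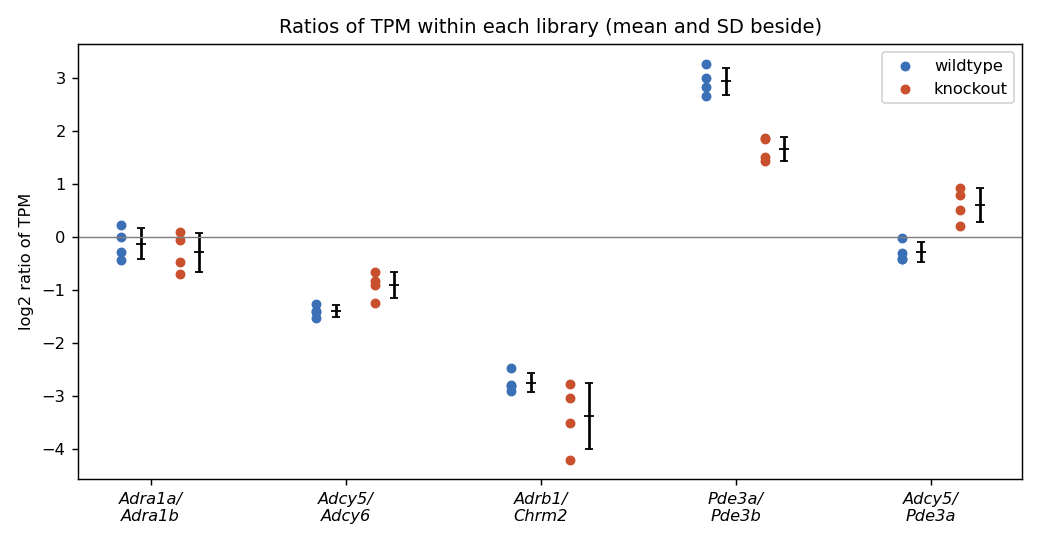
Log2 ratio of TPM (vertical axis) for 5 pairs of genes in each library, with the mean and SD beside the points. Blue points are wildtype and orange points knockout libraries. The groups are apart for Pde3a to Pde3b, Adcy5 to Pde3a and, narrowly, Adcy5 to Adcy6, and they overlap for Adra1a to Adra1b and Adrb1 to Chrm2.

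The deposited mean transcript length of a gene moves when its mix of transcripts moves, and the choice of members did not use it. Adrb1, Adcy5 and Adcy6 have 1 transcript record each, so their length is fixed. Of the 6 other members, tested with limma on log2 length, 0 were called, beside 1.11% of the 8275 genes tested. At an unadjusted p under 0.05 the number was also 0, and the log2 differences lay between -0.056 and 0.052. Rgs2 varied most relative to its length, from 1569 to 2547 bases over the 8 libraries, with 2112 ± 129 (SD, n = 4) in wildtype and 2063 ± 427 in knockout hearts. The 24 transcript records of Gnas gave 1707 to 1722 bases in every library.

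Of 160 further genes in 12 lists along the same route, 148 were tested, 24 were called higher, 41 lower and 83 neither, with a median log2 fold change of -0.15. Over all 19959 genes tested 3628 were called higher and 3100 (15.5%) lower, with a median of 0.005. The counts of each list below are to be read beside these. Whether any list differed from all genes was not tested. The counts over the 12 lists depended on scaling: total counts gave 11 higher and 70 lower, and total counts without mitochondrial rRNA gave 54 higher and 23 lower. The 28 genes of these lists named below by rule kept their direction under both, and 7 of them lost their call. Without mitochondrial rRNA these were Adcy4 (-0.21), Pde7b (-0.35), Pde4b (-0.05), Rgs4 (-0.45) and Itpr1 (-0.23), and under total-count scaling Grk5 and Popdc3 (0.31 each).

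Among 10 other adrenergic and muscarinic receptor genes 6 were tested. Adrb3, a further beta receptor gene, had at most 8.395 normalised counts in any library. The alpha receptor gene Adra1d was called lower (log2 fold change -1.55, SE 0.54, adjusted p = 0.0159), from 38.40 ± 13.7 (SD, n = 4) to 13.11 ± 10.1 normalised counts, with overlapping groups. It was named after its values were seen, as the only call of that list. Its call was lost without wildtype replicate 2, 3 or 4 or knockout replicate 2, and under total counts without mitochondrial rRNA.

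Of 23 other G protein subunit genes tested, 8 were called higher and 0 lower. Gnb3, a beta subunit gene, had a mean of 89.68 ± 17.2 (SD, n = 4) normalised counts in wildtype and 391.1 ± 159 in knockout hearts, a log2 fold change of 2.12 (SE 0.27, adjusted p = 7.62e-14). Gna13, an alpha subunit of the G12 family, was higher by 1.44 (SE 0.21, adjusted p = 1.87e-10), and by 1.15 without knockout replicate 3. Gng12, a gamma subunit gene, was higher by 0.87 (SE 0.15, adjusted p = 7.74e-08). At an unadjusted p under 0.05 DESeq2 gave 9 higher and 1 lower, and edgeR called 7 higher and 0 lower. Leaving out wildtype replicate 1 or 3 gave 1 lower call, and total-count scaling gave 4 higher and 5 lower.

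Of 7 other adenylyl cyclase genes tested, 4 were called lower and 0 higher. Adcy1, a cyclase stimulated by calcium, fell from 312.6 ± 37.1 (SD, n = 4) to 38.36 ± 13.2 normalised counts, a log2 fold change of -3.02 (SE 0.23, adjusted p = 3.74e-38). Adcy9 was lower by 0.84 (SE 0.12, adjusted p = 1.57e-11) and Adcy4 by 0.64 (SE 0.17, adjusted p = 7.99e-04). In both, every knockout library lay below every wildtype library. No higher call was made by edgeR or at an unadjusted p under 0.05 either, and without knockout replicate 3 there was 1.

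Of 17 other phosphodiesterase genes 5 were called lower and 3 higher. Pde4a, which breaks down cAMP, fell from 869.4 ± 49.1 (SD, n = 4) to 194.7 ± 77.5 normalised counts, a log2 fold change of -2.16 (SE 0.25, adjusted p = 5.16e-16). Pde7b was lower by 0.78 (adjusted p = 6.08e-04) and Pde4b by 0.48 (adjusted p = 0.00118), both of them cAMP-specific enzymes. The higher calls fell from 3 to 1 without wildtype replicate 2 or 4 or knockout replicate 1 or 4. Pde3b did not pass the test (log2 fold change 0.31, adjusted p = 0.277).

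Protein kinase A, the main target of cAMP, showed its largest rise in a regulatory subunit. Of 19 genes of its subunits, inhibitors and anchors 6 were called lower and 1 higher. Prkar1a, the regulatory subunit RI alpha, had 4571, 4497, 4933 and 4806 normalised counts in wildtype and 13642, 13101, 10282 and 13407 in knockout libraries, a log2 fold change of 1.42 (SE 0.11, adjusted p = 7.93e-35). Pkia and Pkig, which encode inhibitor peptides of the kinase, were lower by 1.26 (SE 0.15, adjusted p = 4.38e-15) and 0.95 (SE 0.10, adjusted p = 7.14e-21). Without wildtype replicate 2 or knockout replicate 2 the higher calls numbered 2.

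Of 8 receptor kinase and arrestin genes 1 was called higher and 0 lower by DESeq2. This was Grk5, which phosphorylates active receptors, with 417.7 ± 70.2 (SD, n = 4) normalised counts in wildtype and 633.1 ± 68.8 in knockout hearts (log2 fold change 0.60, SE 0.15, adjusted p = 5.95e-04). At an unadjusted p under 0.05 this list had 2 higher and 2 lower genes, and edgeR called 1 in each direction. The lower calls numbered 1 without wildtype replicate 2 and 2 without knockout replicate 2, and the higher calls 2 without knockout replicate 3. Of 15 other RGS genes tested 3 were called lower and 2 higher. Rgs6 was lower by 0.93 (SE 0.17, adjusted p = 1.04e-06) and Rgs4 by 0.89 (SE 0.26, adjusted p = 0.00323). Whether they differed from Rgs2 was not tested.

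On the Gq route of the alpha-1 receptors, 3 of 15 genes were called lower and 2 higher, beside 3100 and 3628 of all 19959 genes tested. Rcan1, a target and regulator of calcineurin, rose from 1290 ± 201 (SD, n = 4) to 3144 ± 1040 normalised counts, a log2 fold change of 1.29 (SE 0.21, adjusted p = 1.78e-08). Prkcd, protein kinase C delta, was higher by 1.05 (SE 0.12, adjusted p = 2.22e-16). Itpr1, an inositol trisphosphate receptor, was lower by 0.66 (SE 0.17, adjusted p = 7.88e-04).

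Of 11 other genes that respond to cAMP 4 were called lower and 3 higher. Hcn4, the pacemaker channel that cAMP opens, fell from 179.9 ± 14.0 (SD, n = 4) to 52.95 ± 12.9 normalised counts, a log2 fold change of -1.77 (SE 0.21, adjusted p = 2.57e-16). The cAMP-binding Popeye genes went in opposite directions, with Bves lower by 1.13 (SE 0.22, adjusted p = 3.55e-06), Popdc3 higher by 0.62 (SE 0.17, adjusted p = 0.00152) and Popdc2 higher by 0.33 (SE 0.10, adjusted p = 0.00304). Popdc2 lies outside the naming rule. Its value under total-count scaling, which moved the median gene by -0.296, is not given here.

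Among 14 kinase A substrates and phosphatase genes 8 were called lower and 2 higher. Cacnb2, the beta subunit of the L-type calcium channel, was lower by 1.53 (SE 0.11, adjusted p = 3.39e-39). Pln, phospholamban, the brake of the calcium pump, was lower by 1.46 (SE 0.18, adjusted p = 2.55e-14). Ryr2, the calcium release channel, had a knockout mean of 37.8% of wildtype (adjusted p = 1.02e-21). Pln and Ryr2 are also among the cardiomyocyte markers given below.

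Downstream of the M2 receptor, both GIRK channel subunit genes were lower. Kcnj3 had 2205, 2056, 1577 and 1852 normalised counts in wildtype and 305.2, 262.5, 161.8 and 286.9 in knockout libraries, a log2 fold change of -2.92 (SE 0.20, adjusted p = 2.55e-48). Kcnj5 had 1867, 1730, 1492 and 1517 in wildtype and 470.6, 576.4, 834.2 and 436.6 in knockout libraries (log2 fold change -1.51, SE 0.20, adjusted p = 8.85e-13). No knockout library reached the wildtype range in either gene.

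Of 15 genes for making, taking up and breaking down the transmitters 11 were tested, with 5 called lower and 2 higher. Maoa, monoamine oxidase A, which degrades noradrenaline, had 73.07, 98.74, 98.11 and 115.0 normalised counts in wildtype and 1810, 2294, 4403 and 2334 in knockout libraries. Its log2 fold change was 4.81 (SE 0.26, adjusted p = 8.49e-72), and 4.47 without knockout replicate 3. Maob, the other monoamine oxidase, was lower by 1.77 (SE 0.15, adjusted p = 1.05e-31).

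**Figure D5:**
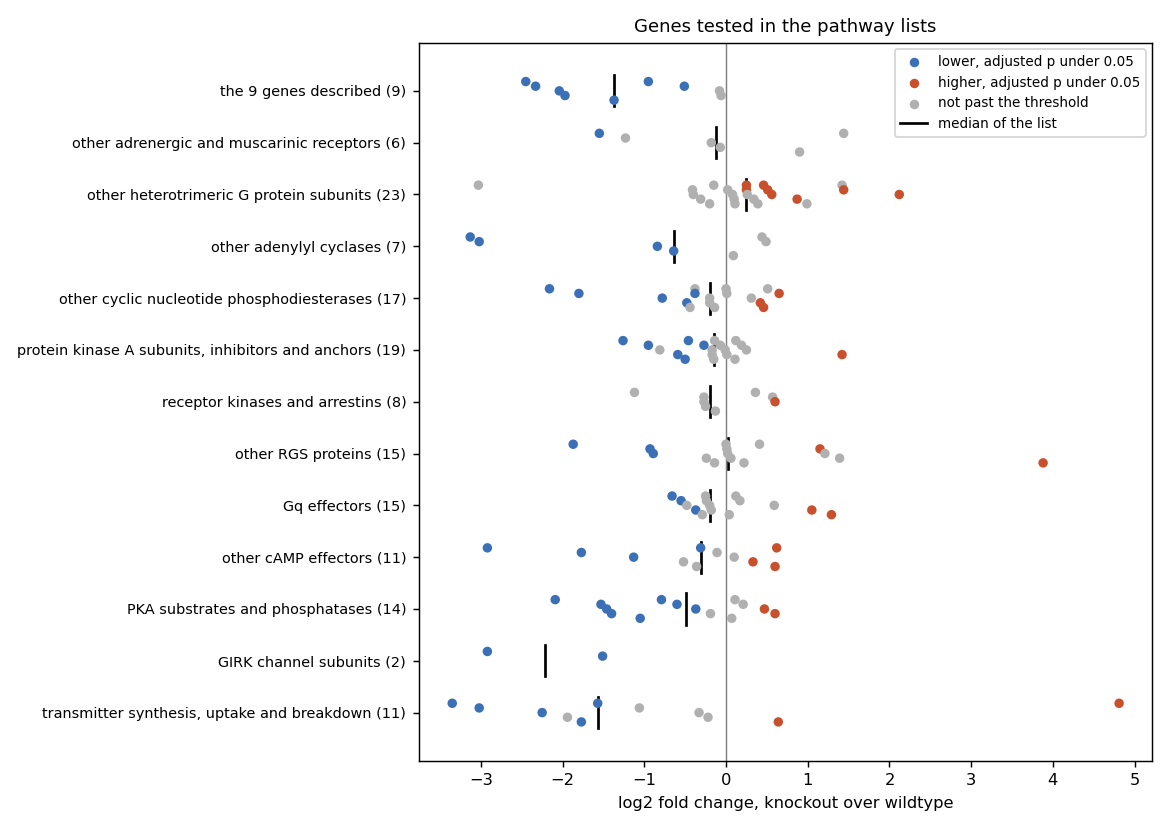
Log2 fold change, knockout over wildtype (horizontal axis), of every gene tested in the 9 members and the 12 pathway lists, with the number tested in brackets. Blue points were called lower, orange points higher and grey points neither by DESeq2, and black lines are list medians. The members have 7 blue and 2 grey points, the G protein subunits only orange and grey points under the scaling of this fit, and Maoa is the orange point at 4.81.

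Marker genes of cell types moved as well. In whole tissue, fewer cells of a type and less RNA per cell cannot be told apart. Of 7 cardiomyocyte markers 6 were called lower, and their summed normalised counts were 991816 to 1105172 in wildtype and 464014 to 608553 in knockout libraries. Of 6 atrial markers 2 were called lower and 2 higher, with sums of 40729 to 42487 and 64475 to 82266, the rise lying mostly in Nppa. Myl7 and Sln were called lower, Nppa and Pam higher, and Myl4 and Bmp10 neither. Myl7, an atrial myosin light chain, had 3287 to 4555 normalised counts in wildtype and 70.13 to 639.1 in knockout libraries, with the lowest in knockout replicate 3. Chrm2, the GIRK genes and Hcn4 are rich in atria. Replicate 3 was the lowest knockout library for Kcnj3 (161.8), but not for Chrm2 (1184), Kcnj5 (834.2) or Hcn4 (63.42). Whether atrial content moved these genes was not tested. Of 8 neuron and Schwann cell markers 5 were tested and 2 called lower, Dbh among them, with sums of 158.1 to 191.7 and 69.51 to 118.9 and Chat at 0 in every library. Of 5 macrophage markers 4 were called higher, with sums of 1817 to 2231 and 2273 to 4866. Of 6 smooth muscle and pericyte markers 2 were called lower, with sums of 13208 to 14295 and 5840 to 9076, the fall lying mostly in Abcc9, a channel subunit that heart muscle also expresses, from 8870 ± 614 (SD, n = 4) to 3701 ± 730 normalised counts. Myh11, a smooth muscle myosin, was the other, while Cspg4 and Kcnj8 were at 102%, Notch3 at 85.1% and Cnn1 at 35.3% of wildtype and were not called. Among 5 fibroblast markers 1 was called higher, while DESeq2 called 0 of 5 endothelial, 4 adipocyte and 5 erythroid markers. At an unadjusted p under 0.05, 2 endothelial markers passed, Pecam1 higher and Kdr lower, and without knockout replicate 3 Pecam1 and Emcn were called higher. That exclusion also made the calls 7 lower for cardiomyocyte, 3 lower for atrial, 2 higher for fibroblast, 5 higher for macrophage and 3 lower for smooth muscle and pericyte markers. The part of these shifts in the members' values was not tested.

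The genes most like Adra1a, the member with the largest fall, were sought by the root mean square difference of log2 values relative to the wildtype mean over the 8 libraries, among 10446 genes of at least 100 normalised counts on average. Ppm1k was the closest at 0.124, then Pdp2 at 0.185 and Sh3rf2 at 0.230. Ppm1k went from 3072 ± 341 (SD, n = 4) to 611.7 ± 55.4 normalised counts, and Pdp2 from 842.9 ± 72.1 to 166.0 ± 6.50. Both encode mitochondrial phosphatases, of branched-chain keto acid dehydrogenase and pyruvate dehydrogenase. Sh3rf2 went from 643.0 ± 37.0 to 122.7 ± 15.2 normalised counts. No member was called higher, so no like genes were sought for a rise.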

How the data were processed

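The authors deposited RSEM 1.2.31 expected counts, TPM and other values (transcript length and effective length, in bases) for each library, made from reverse-stranded paired reads against GENCODE M13 transcripts with added mitochondrial sequences. Gene symbols and coordinates came from GENCODE M21, on the same build (GRCm38), for 50339 of 50563 Ensembl IDs. The deposited TPM values sum to 1000000 per library and served only for ratios, with no pseudocount. An alternative added 0.1 to each TPM. The authors' table of fold changes and p-values was not used, nor were 8 columns of normalised counts whose names match no sample label.

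Expected counts were rounded and fitted in DESeq2 1.42.0 (R 4.3.3) over all genes and 8 libraries. Genotype was the sole term, size factors were medians of ratios, effective lengths entered as an offset, and fold changes were not shrunken. Calls are Benjamini-Hochberg adjusted p under 0.05. Alternatives used edgeR 4.0.16 and other scalings, filters and sets of libraries, and limma 3.58.1 tested log2 length. The fits were tested on simulated data. Libraries were grouped by their titles. Libraries of 1 group differed beyond sampling noise (chi-square per degree of freedom 4.401 to 48.31), so each counted as 1 replicate. At 35218541 counts or more per library, the members had 38 to 8021 counts, so that counting error adds to the replicate spread in those with few counts.

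The members and lists were chosen with earlier results of these data known. Beyond the members, Adrb3 and Lrpprc, the genes named are, per list, at most the 3 with the largest absolute log2 fold change among those called whose mean reached 100 normalised counts, and the 3 genes most like the member with the largest fall and the member with the largest rise. Marker genes, Pde3b, which enters a ratio, Adra1d, the only call of its list, and Popdc2, the third Popeye gene, are named besides. Some genes that the rule names are not reported here.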

Additional observations from a re-analysis of the deposited data

Results flagged for a closer look

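Among 84 groups of 4 libraries, formed from the members and the other genes named, 8 had 1 library far from the other 3 by Dixon's criterion. Chance alone sets apart about 1 group in 20. Of the members this touched Pde3a, where wildtype replicate 3 had 2490 normalised counts and the others 2841 to 2861.

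Knockout replicate 3 was the far library in 3 groups. It was low for Prkar1a with 10282 normalised counts, beside 13101 to 13642. It was high for Gna13 with 3649, beside 1851 to 1990, and for Pln with 37044, beside 20590 to 22642.

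Knockout replicate 1 was high for Gnb3, at 629.3 normalised counts beside 302.5 to 328.9, and for Rcan1, at 4690 beside 2506 to 2841. Wildtype replicate 4 was low for Gng12, at 355.5 normalised counts beside 452.1 to 470.4, and for Bves, at 819.4 beside 901.7 to 908.3.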

How the results depend on the processing

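Each value was recomputed under up to 15 alternatives. Adrb1, Adra1a, Adra1b, Chrm2, Rgs2 and Pde3a kept their direction and call under all of them, as did Lrpprc. Under total-count scaling the log2 fold changes of Adcy5 and Gnas were called at -0.35 and -0.38, and without mitochondrial rRNA they turned to 0.37 and 0.34, which made 2 members higher and left Adcy6 uncalled at -0.10. The list genes called lower were then 70 and 23 and those called higher 11 and 54, against 41 and 24. The median gene moved by -0.296 and 0.425, by the construction of these scalings, and the share of lower calls over all genes went from 46.1% to 75.4% and 12.2%. Under these scalings 7 of the 28 named list genes lost their call (Adcy4, Pde7b, Pde4b, Grk5, Rgs4, Itpr1 and Popdc3), and none turned. With 1 library left out, Adcy6 ranged from -0.71 to -0.41 and lost its call without knockout replicate 4 (-0.44), for a cause not tested, and Adcy5 ranged from -0.11 to 0.02. The members called lower then numbered 6 to 7. Left-out libraries turned the sign of length differences near 0, in Adra1b (-0.069 to 0.006), Chrm2 (-0.028 to 0.007), Gnas (-0.002 to 0.002), Pde3a (-0.025 to 0.039) and Rgs2 (-0.165 to 0.068). The ratio differences ranged from 0.40 to 0.59 for Adcy5 to Adcy6, -1.36 to -1.16 for Pde3a to Pde3b, 0.78 to 1.02 for Adcy5 to Pde3a, -0.83 to -0.36 for Adrb1 to Chrm2 and -0.29 to -0.02 for Adra1a to Adra1b. The first 3 missed the threshold without any 1 wildtype library but passed it without any 1 knockout library, and Adrb1 to Chrm2 passed it without knockout replicate 1. With 1 library left out the smallest p of the exact permutation test is 0.0286 before adjustment over the 6 ratios. The adjusted p therefore moves in coarse steps. The differences of the first 3 ratios kept their sign, and the cause of the lost calls was not tested.

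The replicate numbers did not pair the libraries: same-numbered deviations correlated at -0.0291, -0.0515, -0.00854 and 0.0864 over 10447 genes, and 1 of 4 libraries matched its own number best. With a replicate block 5496 genes were called against 6728, and no member's call changed, while the phosphodiesterase genes called higher went from 3 to 1. For the ratios 4 sign flips cannot give a p under 0.125, so the block gave values only. Counting depth limited genes of a few counts, such as Adrb3, for which no direction is given.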
